A study of Ovis aries with 6 samples.

Results

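The mitotic kinesins KIF11, KIF15, KIFC1, KIF2C, KIF18A, KIF22, KIF4A, KIF23, KIF20A and KIF14 were taken by gene symbol from the table of raw counts, for their known parts in the spindle, in chromosome movement or in cytokinesis. All 10 had a row among 18865, and all 10 were among the 14326 genes that passed a filter on low counts and were tested. The RNA came from sheep endothelial cells of the mitral valve, called VECs, which cover the valve leaflets and were grown here in culture. One group had 24 h with ovine plasma taken after myocardial infarction (post-MI plasma, 3 libraries) and the other 24 h with ovine naive plasma (3 libraries). No genotype, age or cell donor is given for either group. The 3 libraries of a group are not stated to be independent cultures or to differ in the animals that gave plasma or cells, so p-values here measure only the spread among them, which may be technical. Library totals ran from 14858472 to 18747848 counts with post-MI plasma and from 17446474 to 20672794 counts with naive plasma.

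Kinesins are motor proteins that use ATP to move along microtubules or to take their ends apart. Most carry cargo in cells that are not dividing, but a subset builds the mitotic spindle, moves chromosomes and helps to split the cell. The mRNAs of that subset are made mainly late in the cell cycle, so in a tissue or culture their level is known to follow the share of cells in G2 and M phase. The mature endothelium of a valve divides little, while endothelial cells in culture divide.

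All 10 mitotic kinesins were higher in every library with post-MI plasma than in any library with naive plasma. Their fold changes lay between 2.11 for KIF18A and 3.75 for KIF14, with a median log2 fold change of 1.49 (10 of 10 positive), beside -0.01 over all genes tested. Groups that did not overlap were found for 8.32% of all genes tested in this direction and for 7.82% in the other. No single member passed the test adjusted over all genes: edgeR's quasi-likelihood test called 0 of the 10, and 0% of all genes, at an adjusted p under 0.05. At an unadjusted p under 0.05 it gave 10 of the 10 members and 4.61% of all genes in the same direction. The DESeq2 Wald test, tried as an alternative, called 9 of the 10 higher (KIF18A was not called) and 1.06% of all genes. In RNA from whole cultures, more dividing cells and more RNA per dividing cell cannot be told apart.

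Endothelial identity was checked first. All 10 endothelial markers looked up, among them PECAM1 and CDH5, had counts in the libraries, with summed levels of 2845 to 4045 CPM in post-MI and 2651 to 3277 CPM in naive libraries. Of these 10, CLDN5 was the 1 higher without overlap (8.32% of all genes tested were), with a log2 fold change of 2.27 ± 0.89 (SE). VWF gave 1.43 ± 0.49 and EGFL7 0.55 ± 0.21 (SE). The 2 with negative values, TEK and KDR, gave -0.31 ± 0.44 and -0.29 ± 0.44 (SE), and edgeR called 0 of the 10. The unit CPM is a gene's count relative to the size of its library, which was scaled by the trimmed mean of M values (TMM). Genes that mark fibroblasts and valve interstitial cells were also abundant, at 14203 to 18824 CPM summed in post-MI and 11039 to 20692 CPM in naive libraries (9 of 9 with counts, 0 of 9 higher and 1 lower without overlap). The 1 lower was POSTN, beside 7.82% of all genes tested that were lower without overlap. POSTN had 633, 503 and 578 CPM in post-MI replicates 1, 2 and 3, against 3061, 868 and 733 CPM in naive replicates 1, 2 and 3. Smooth muscle markers summed to 4362 to 6028 CPM in post-MI and 832 to 4837 CPM in naive libraries (4 rows, none at 0). TAGLN was the 1 of 4 higher without overlap (8.32% of all genes tested were). Its groups almost touched, at 436.6 CPM in post-MI replicate 2 and 435.1 CPM in naive replicate 2. Leukocyte markers summed to 44.4 to 71.2 CPM in post-MI and 58.97 to 72.7 CPM in naive libraries, with CD3E, ITGAM and AIF1 under 1 CPM in all 6. PTPRC, the common leukocyte antigen CD45, was the 1 of 7 higher without overlap, beside the same 8.32% of all genes tested. PTPRC had 0.64, 0.82 and 1.33 CPM in post-MI replicates 1, 2 and 3, against 0.20, 0.35 and 0.14 CPM in naive replicates 1, 2 and 3. Of red cell markers ALAS2 was at 0 in all 6 libraries and AHSP under 1 CPM. The part of these other genes in the kinesin differences was not tested. Naive replicate 1 stood apart on the first principal component of the 500 most variable genes, at 52.3 against -18.5 to 0.50 in the other 5 libraries, so the kinesin results are also given without it.

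The motors KIF11, KIF15 and KIFC1 act on microtubules that cross in the spindle. KIF11 (also called Eg5) slides antiparallel microtubules apart and so separates the spindle poles. It had 100.4, 73.7 and 65.3 CPM in post-MI replicates 1, 2 and 3, against 24.3, 32.3 and 22.0 CPM in naive replicates 1, 2 and 3. Its lowest post-MI library was 2.02 times its highest naive library. The log2 fold change was 1.61 ± 0.22 (SE; edgeR adjusted p = 0.254, higher in 3 of 3 post-MI libraries).

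KIFC1 is a motor that walks toward the minus end and bundles microtubules at the poles. It had 41.2, 34.5 and 39.1 CPM in post-MI replicates 1, 2 and 3, against 13.6, 16.1 and 11.1 CPM in naive replicates 1, 2 and 3. It had the widest gap of the 10 members between the groups, with the lowest post-MI library at 2.14 times the highest naive one. Its log2 fold change of 1.49 ± 0.17 (SE) had the smallest error of the 10 and the smallest unadjusted edgeR p of all 14326 genes, 5.26e-05, which after adjustment was 0.254. KIF15, a plus-end motor that can hold the poles apart when KIF11 is blocked, was expressed at lower counts. It had 16.3, 12.0 and 8.95 CPM in the post-MI libraries and 6.81, 4.75 and 2.54 CPM in the naive libraries, in order of replicate, and the groups did not overlap (log2 fold change 1.41 ± 0.39 SE, edgeR adjusted p = 0.489).

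**Figure D1:**
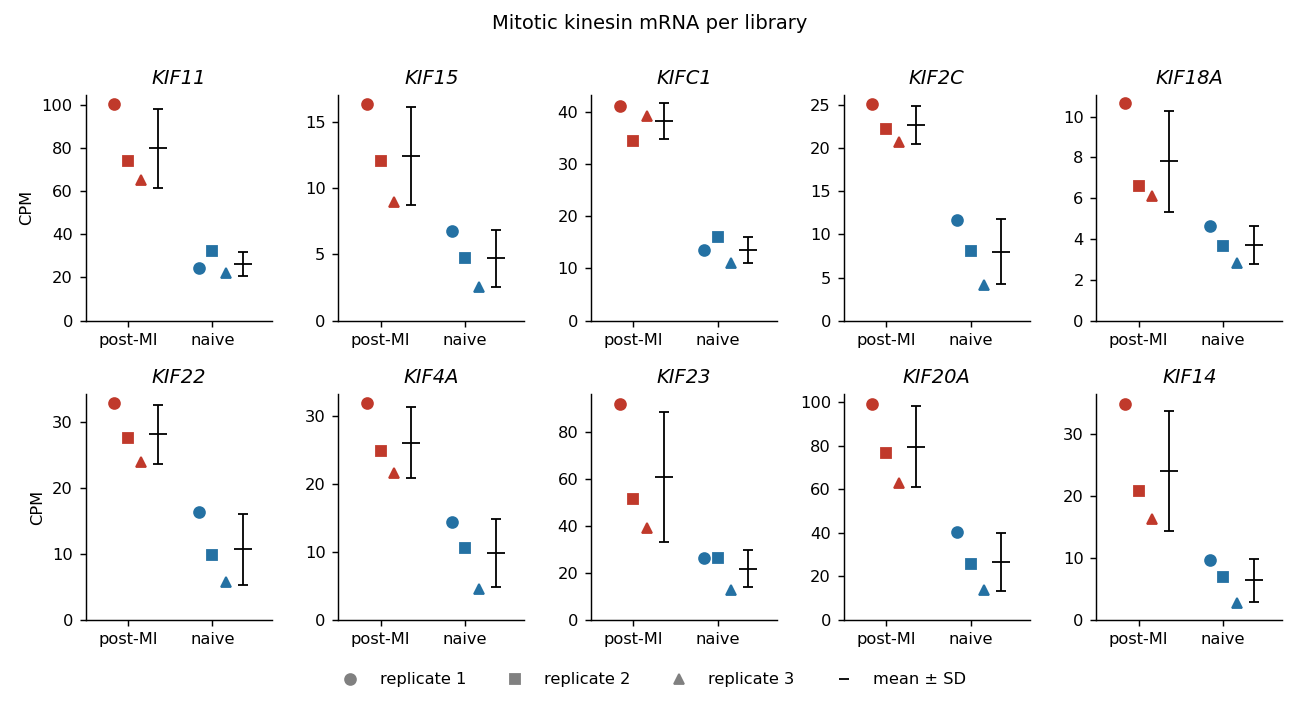
Levels of the 10 mitotic kinesins in CPM, one panel per gene, with post-MI libraries at the left in red and naive libraries at the right in blue. Marker shapes give the replicate, bars give the mean ± SD of 3 libraries, each axis starts at 0, and in each panel every post-MI library lies above every naive library.

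The next 4 motors act on chromosomes. KIF2C (MCAK) takes microtubule ends apart and corrects wrong attachments at kinetochores. It had 25.1, 22.2 and 20.7 CPM in post-MI replicates 1, 2 and 3, against 11.7, 8.11 and 4.14 CPM in naive replicates 1, 2 and 3. The post-MI libraries lay close together, within 1.21 times of each other, while the naive libraries spread over 2.83 times (log2 fold change 1.51 ± 0.35 SE, edgeR adjusted p = 0.363). KIF22, a chromokinesin that pushes chromosome arms away from the poles, also varied more among naive libraries, with 32.9, 27.5 and 24.0 CPM in the post-MI and 16.4, 9.90 and 5.78 CPM in the naive libraries, in order of replicate. Its log2 fold change was 1.40 ± 0.36 (SE; edgeR adjusted p = 0.407).

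KIF4A, a chromokinesin that also limits microtubule growth in the midzone between the separating chromosomes, had 31.9, 24.9 and 21.6 CPM in post-MI replicates 1, 2 and 3, against 14.4, 10.6 and 4.51 CPM in naive replicates 1, 2 and 3. The groups did not overlap, and naive replicate 3 was the lowest of the 6 libraries (log2 fold change 1.41 ± 0.40 SE, edgeR adjusted p = 0.490). KIF18A, which dampens the swings of chromosomes at the spindle equator, had the smallest difference of the 10. It had 10.7, 6.63 and 6.12 CPM in the post-MI and 4.65, 3.65 and 2.82 CPM in the naive libraries, in order of replicate, with a lowest post-MI library 1.31 times the highest naive one. Its log2 fold change was 1.07 ± 0.31 (SE; edgeR adjusted p = 0.491), and 2.34% of all genes tested had a log2 fold change at least as high.

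The remaining 3 motors work at the midzone and in cytokinesis. KIF23 (MKLP1) is the motor subunit of centralspindlin, which marks where the cell will divide. It had 92.3, 51.7 and 39.3 CPM in post-MI replicates 1, 2 and 3, against 26.4, 26.5 and 12.7 CPM in naive replicates 1, 2 and 3. Post-MI replicate 1 was far above the other post-MI libraries, and the group spread over 2.35 times was the widest of any member with post-MI plasma (log2 fold change 1.48 ± 0.40 SE, edgeR adjusted p = 0.451).

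KIF20A (MKLP2), which brings the chromosomal passenger complex with the kinase AURKB to the midzone, had 99.3, 76.5 and 62.8 CPM in post-MI replicates 1, 2 and 3, against 40.4, 25.6 and 13.8 CPM in naive replicates 1, 2 and 3. Its log2 fold change was 1.58 ± 0.38 (SE; edgeR adjusted p = 0.380). KIF14, which binds the midzone bundler PRC1 and citron kinase, had the highest log2 fold change of the 10, at 1.91 ± 0.48 (SE; edgeR adjusted p = 0.393). It had 34.7, 20.8 and 16.2 CPM in the post-MI and 9.56, 6.89 and 2.73 CPM in the naive libraries, in order of replicate, and its naive libraries spread over 3.51 times. The lowest value came from 58 counts in naive replicate 3, with an exact 95% Poisson interval of 2.07 to 3.52 CPM that covers counting error alone.

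The motors varied together from library to library within each group. Summed over the 10 genes, the level was 485, 350 and 304 CPM in post-MI replicates 1, 2 and 3, against 168, 144 and 82.1 CPM in naive replicates 1, 2 and 3. Post-MI replicate 1 had the highest level of its group for 10 of the 10 members, and post-MI replicate 3 the lowest for 9. Naive replicate 3 had the lowest level of its group for 10 of the 10, and naive replicate 1 the highest for 7. The 3 exceptions were KIF11, KIF23 and KIFC1, which were highest in naive replicate 2.

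KIF11 and KIFC1 differed less among the naive libraries than most of the others. Their naive libraries spread over 1.47 and 1.45 times, KIF18A over 1.65 times, and the other 7 over 2.09 to 3.51 times. Together KIF11 and KIFC1 made up 29.2%, 30.9% and 34.3% of the summed kinesin CPM in post-MI replicates 1, 2 and 3, against 22.5%, 33.5% and 40.4% in naive replicates 1, 2 and 3. The groups overlapped in this share, which was highest in naive replicate 3, the library with the lowest sum. Between the members with the largest and the smallest fold change, the log2 ratio of KIF14 to KIF18A was 1.69, 1.63 and 1.39 in the post-MI and 1.02, 0.90 and -0.05 in the naive libraries, in order of replicate. This pair was picked from its values, so no test was made of it.

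**Figure D2:**
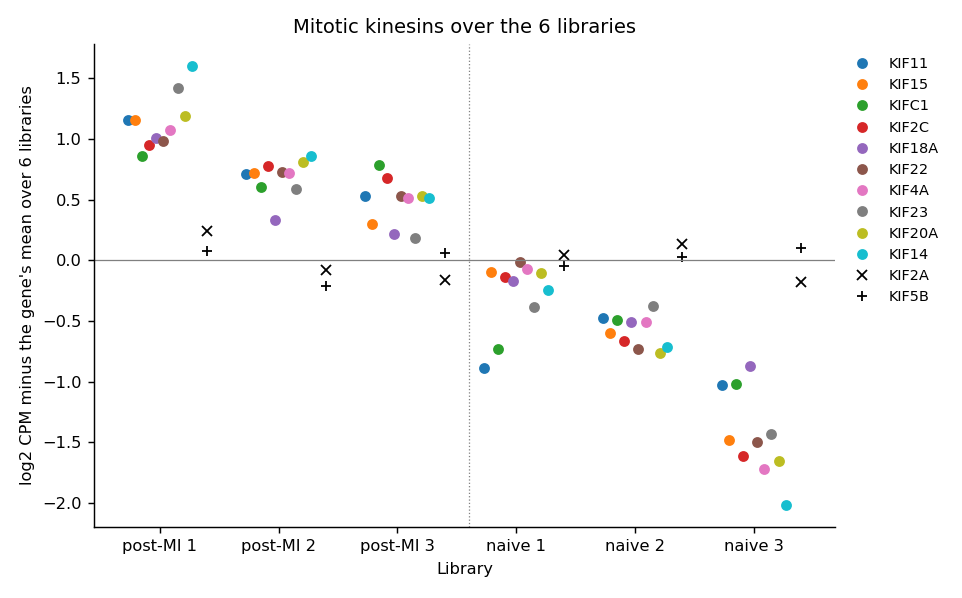
Log2 CPM of each mitotic kinesin minus that gene's mean over the 6 libraries, with post-MI libraries left of the dotted line and naive libraries right of it. All 10 members lie above 0 in the 3 post-MI libraries and below 0 in the 3 naive libraries, while KIF2A and KIF5B (black crosses and plus signs) stay within 0.3 of 0.

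Leaving out single libraries changed the size of the differences but not their sign. The median log2 fold change of the members was 1.80 without naive replicate 1 and 1.20 without naive replicate 3, and it was 1.33 without post-MI replicate 1. Every log2 fold change stayed positive in these 6 fits, from 0.78 for KIF18A without post-MI replicate 1 to 2.34 for KIF14 without naive replicate 1. KIFC1 moved least, between 1.37 and 1.63, and KIF11 lay between 1.41 and 1.78. edgeR called 0 members in each of the 6 fits.

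The DESeq2 calls depended on single libraries. The 9 calls with all 6 libraries became 2 when post-MI replicate 1 was left out, with 0.353% of all genes called higher. Leaving out post-MI replicate 2 also left 2 calls, with 0.505% of all genes called higher. KIF11 and KIFC1 were called in all 6 of these fits (DESeq2 adjusted p = 4.7e-07 and 3.04e-08 with all libraries). DESeq2 called 6 members without naive replicate 2, with 1.63% of all genes called higher. It called 7 members without naive replicate 3 (1.04% of all genes) and 8 without post-MI replicate 3 (1.38% of all genes). Without naive replicate 1, the library that stood apart, it called 10 of 10, with 1.39% of all genes called higher. In the authors' deposited table for each library, the genes stand in 1 common order whose basis is not stated, with KIFC1 in row 1 and KIF11 in row 6 of 18865. The other 8 members stand in rows 99 to 310 of the authors' deposited table. Ranked here by DESeq2's p with no count filter, KIFC1 came 1, KIF11 6 and the other 8 members 99 to 311, close to their rows. The order comes from the same counts, so it is not separate evidence.

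**Figure D3:**
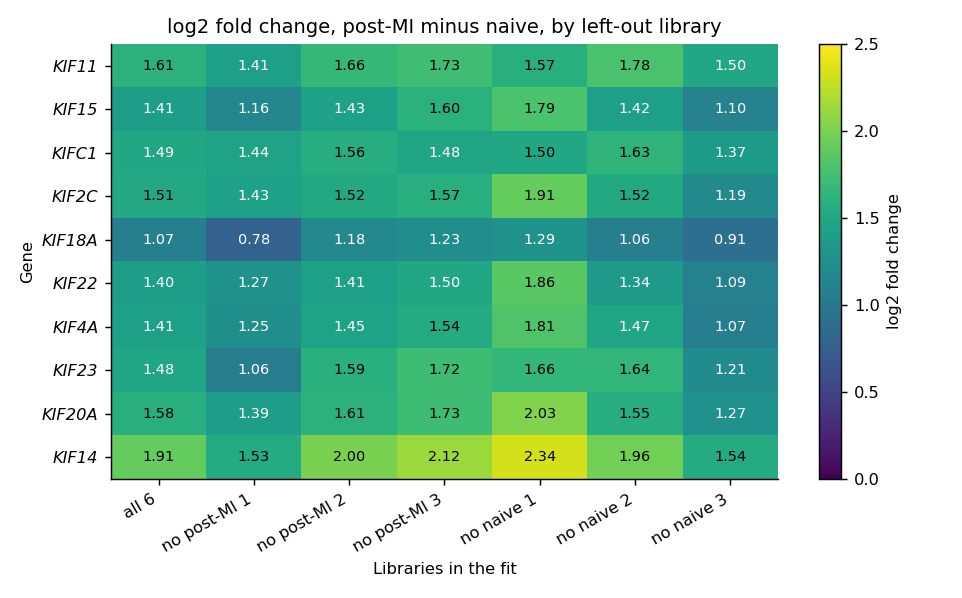
Log2 fold change, post-MI minus naive, of each mitotic kinesin (rows) with all 6 libraries and with each library left out in turn (columns), from edgeR. Every cell is above 0, and the lowest is KIF18A without post-MI replicate 1, at 0.78.

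Other kinesins with a part in division moved in part. CENPE, the kinetochore motor that carries chromosomes to the equator, averaged 42.5 ± 4.96 CPM in post-MI and 15.2 ± 5.26 CPM in naive libraries (SD, n = 3 each), with 1.49 ± 0.26 (SE) as its log2 fold change. KIF18B, a depolymerase of astral microtubules, gave 1.53 ± 0.29, and KIF20B, a motor of late cytokinesis, 0.89 ± 0.26 (SE). These 3 did not overlap between the groups, beside 8.32% of all genes tested that were higher without overlap. KIF2A, a depolymerase at spindle poles that is also used outside mitosis, averaged 53.7 ± 8.27 CPM in post-MI and 53.6 ± 5.81 CPM in naive libraries (log2 fold change 0.00 ± 0.16 SE), and STARD9 gave 0.06 ± 0.19 (SE). KIF2B had no counts in any library, and KIF25 was under the filter with at most 1 count per library. edgeR called 0 of the 5 tested, and DESeq2 called CENPE and KIF18B (1.06% of all genes were called higher).

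Among 26 transport, ciliary and other kinesins, 21 passed the filter, with 7 positive and 14 negative log2 fold changes and a median of -0.05. For 16 of the 21 the log2 fold change was under 0.5 in size. KIF5B, the heavy chain of conventional kinesin, averaged 437 ± 47.7 CPM in post-MI and 452 ± 24.1 CPM in naive libraries (SD, n = 3 each). The other 5 were KIF24 and KIF26A, which were positive, and KIF21B (-0.80 ± 0.56), KIF26B (-0.78 ± 0.48) and KIF17 (-0.52 ± 0.54, SE), which were negative and overlapped between the groups. The highest was KIF24, a centriolar kinesin that restrains the primary cilium, with 23.7, 18.7 and 12.2 CPM in the post-MI and 4.15, 8.16 and 3.85 CPM in the naive libraries, in order of replicate. Its log2 fold change was 1.76 ± 0.37 (SE; edgeR adjusted p = 0.332). KIF24 was the 1 gene of this list that DESeq2 called, beside 1.06% of all genes called higher. KIF26A gave a log2 fold change of 1.29 ± 0.45, KIF16B, a motor of early endosomes, -0.48 ± 0.18, and KIF7, a regulator of Hedgehog signalling in cilia, -0.25 ± 0.15 (SE). Of the 21 tested, KIF24 was the 1 higher without overlap and KIF16B the 1 lower, and edgeR called 0. Of all genes tested, 8.32% were higher and 7.82% lower without overlap. KIF1A, under the filter, had 1 count in each post-MI library and 38, 20 and 4 counts in naive replicates 1, 2 and 3.

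**Figure D4:**
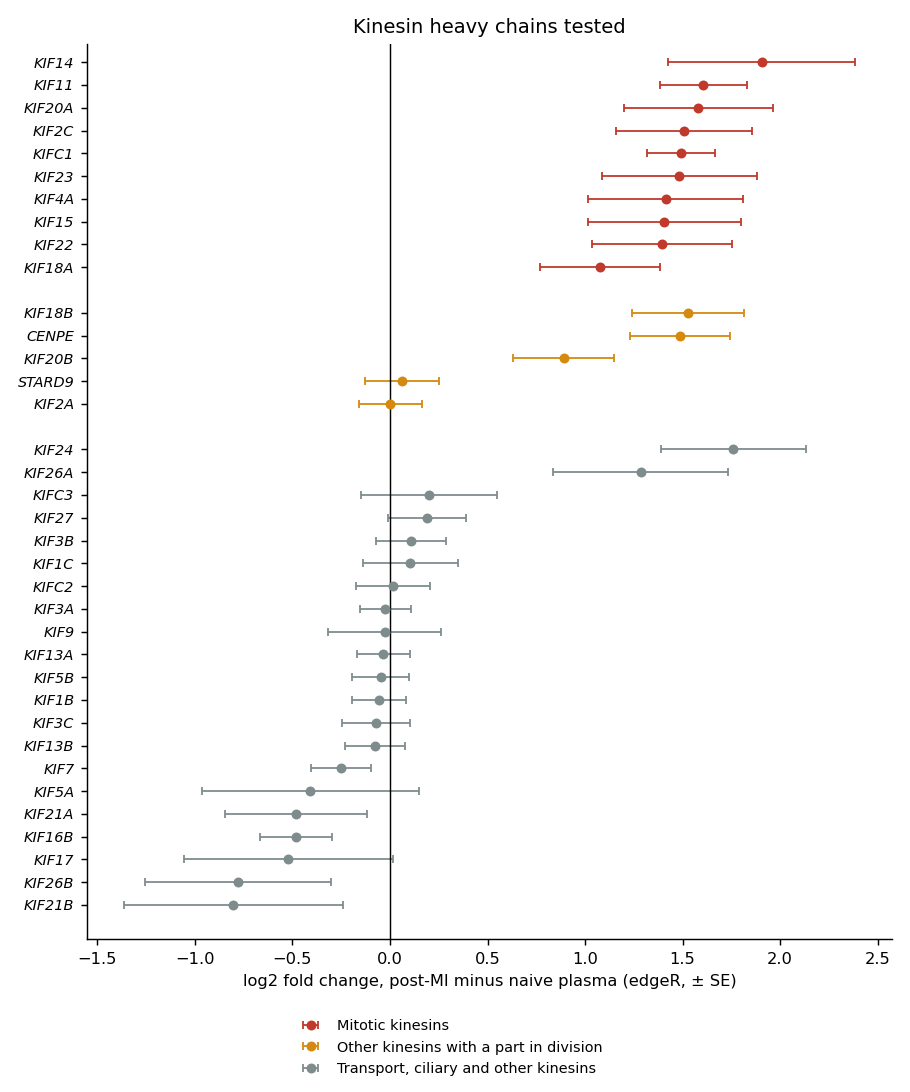
Log2 fold change, post-MI minus naive plasma, of each tested kinesin heavy chain from edgeR, with bars of 1 SE. The 10 mitotic kinesins lie at 1.07 or higher, KIF2A and STARD9 lie near 0, and KIF24 and KIF26A are the transport, ciliary and other kinesins above 1.

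The other parts of the microtubule motor machinery showed small differences. Of the kinesin light chains and accessory proteins, 5 were tested, with log2 fold changes of -0.16 to 0.13 and 0 calls by edgeR or DESeq2. They were KIFAP3 (-0.16 ± 0.14), KLC4 (-0.15 ± 0.19), KLC2 (0.13 ± 0.20), KIFBP (0.06 ± 0.16) and KLC1 (-0.03 ± 0.15, SE). Cytoplasmic dynein and dynactin, the main minus-end transport motor and its cofactor, gave -0.31 to 0.15 over 10 subunits and also 0 calls. The lowest value was that of DYNC1I1, at -0.31 ± 0.92 (SE). With 1 to 31 counts per library and no adjusted p from DESeq2, its difference is not known to be small. Of the 10, 4 were lower without overlap between the groups (DYNC1I2, DYNC1LI2, DYNLRB1 and DCTN2) and 0 higher, beside 7.82% and 8.32% of all genes tested. DYNC1LI2 and DYNC1LI1, light intermediate chains of dynein, gave -0.30 ± 0.13 and -0.19 ± 0.14 (SE). DYNLRB1 and DYNC1I2, a light and an intermediate chain, gave -0.22 ± 0.13 and -0.13 ± 0.12 (SE).

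The mRNAs of most proteins that work with the mitotic kinesins were higher too. Of 24 partners and regulators, 18 were higher without overlap between the groups and 18 had an unadjusted edgeR p under 0.05, all with positive log2 fold changes. Of all genes tested, 8.32% were higher without overlap and 4.61% were higher at an unadjusted edgeR p under 0.05. edgeR called 0 of the 24 over all genes, DESeq2 called 12 (1.06% of all genes were called higher), and the median log2 fold change was 1.10. PRC1, the midzone bundler bound by KIF4A and KIF14, averaged 53.3 ± 18.9 CPM in post-MI and 14.5 ± 3.03 CPM in naive libraries (SD, n = 3 each), with 1.88 ± 0.28 (SE) as its log2 fold change. The mitotic kinase PLK1, which acts on several of the motors, gave 2.13 ± 0.39 (SE), the highest of the list. Citron kinase CIT, the partner of KIF14 in cytokinesis, gave 1.62 ± 0.25, and TPX2, which brings KIF11 to spindle microtubules, gave 1.05 ± 0.19 (SE). The centralspindlin subunit RACGAP1, which binds KIF23, gave 1.23 ± 0.33 (SE), close to KIF23 itself at 1.48 ± 0.40 (SE).

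The 2 Aurora kinases differed in their values. AURKB, carried by KIF20A, averaged 23.3 ± 9.35 CPM in post-MI and 8.07 ± 4.30 CPM in naive libraries (SD, n = 3 each) and did not overlap. AURKA, the spindle pole kinase that phosphorylates KIF11, had 137, 152 and 104 CPM in post-MI replicates 1, 2 and 3, against 53.0, 118 and 149 CPM in naive replicates 1, 2 and 3, so the groups overlapped (log2 fold change 0.30 ± 0.36 SE, edgeR adjusted p = 0.807). MAPRE1, the microtubule end protein that recruits KIF2C, and the GTPase RAN were the 2 partners with negative values, at -0.25 ± 0.18 and -0.10 ± 0.13 (SE). AURKB, AURKA, RACGAP1, MAPRE1 and RAN were picked here for their known ties to the motors, after their values were seen.

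Of 14 transcription factors that act on genes of G2 and M phase, 2 had an unadjusted edgeR p under 0.05, both higher. DESeq2 called the same 2, FOXM1 and MYBL2. Of all genes tested, 4.61% were higher at that unadjusted p and 1.06% were called higher by DESeq2. FOXM1 averaged 17.0 ± 4.93 CPM in post-MI and 4.23 ± 2.11 CPM in naive libraries (SD, n = 3 each), with 2.02 ± 0.44 (SE) as its log2 fold change. MYBL2, the B-MYB subunit of the complex that activates late cell cycle genes, gave 1.47 ± 0.33 (SE). For 11 of the 14 the log2 fold change was under 0.5 in size, and edgeR called 0. E2F1 gave 0.55 ± 0.25 and NFYC 0.29 ± 0.16 (SE). The list median was 0.19.

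**Figure D5:**
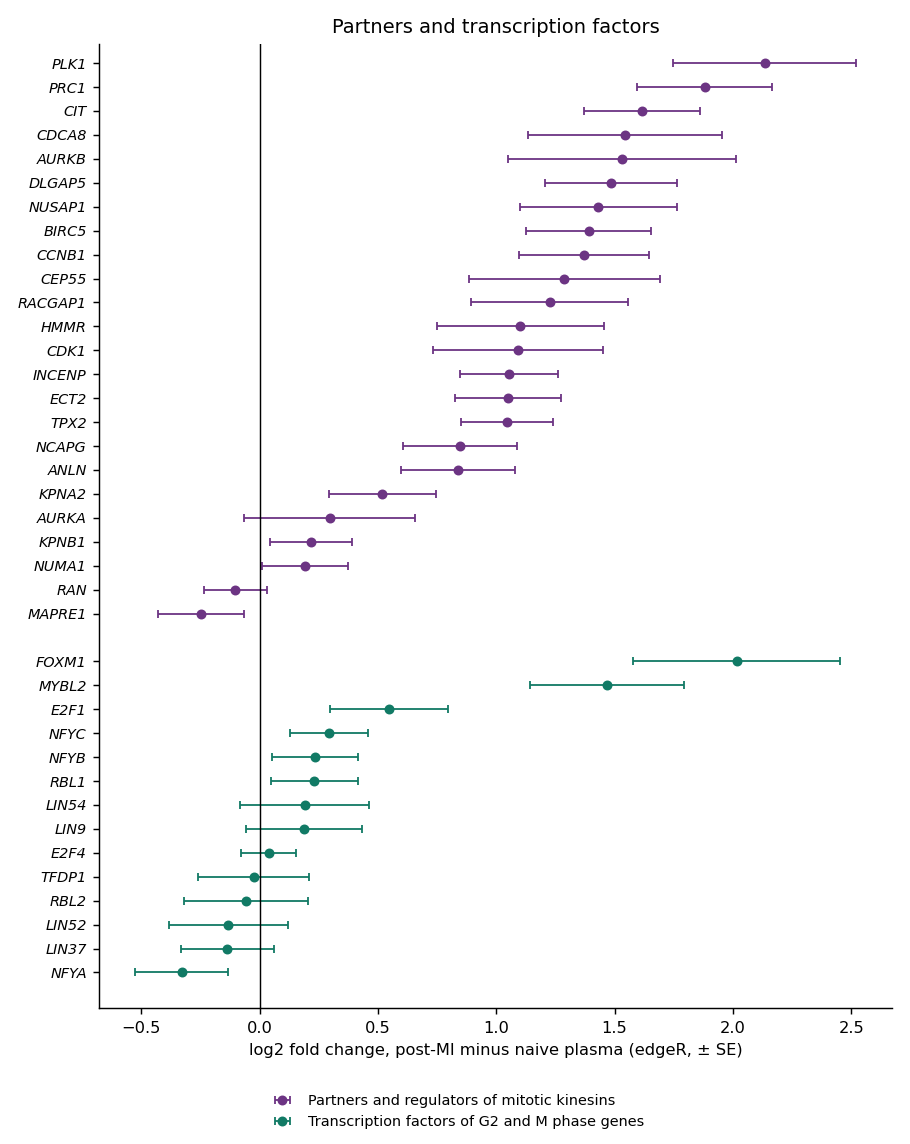
Log2 fold change, post-MI minus naive plasma, of 24 partners and regulators of the mitotic kinesins (purple) and 14 transcription factors of G2 and M phase genes (green), from edgeR, with bars of 1 SE. PLK1, PRC1 and FOXM1 lie highest, and AURKA, KPNB1, NUMA1, RAN and MAPRE1 lie within 0.3 of 0.

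Of 10535 other tested genes with a mean log2 CPM of at least 3, the 5 whose profile lay nearest to the mean of the mitotic kinesins were NUSAP1, CDCA2, MYBL2, CCNF and DLGAP5. NUSAP1, a spindle microtubule bundler, was on average 0.036 log2 units from the mean kinesin profile over the 6 libraries, and DLGAP5, the last of the 5, was 0.092 from it. Single members lay 0.081 (KIF15) to 0.271 (KIFC1) from the same mean, to which each contributes. This is a description over 6 libraries that share the 2 groups. General markers of proliferation gave 1.81 ± 0.40 for MKI67 and 1.24 ± 0.38 for TOP2A (log2 fold change, SE). PCNA, a clamp of DNA replication, had 42.9, 52.1 and 49.9 CPM in post-MI replicates 1, 2 and 3, against 54.4, 45.3 and 25.8 CPM in naive replicates 1, 2 and 3, and overlapped. CDKN1A, an inhibitor of cell cycle kinases, had 17.8, 29.3 and 69.7 CPM in the post-MI and 64.5, 51.0 and 77.2 CPM in the naive libraries, in order of replicate (log2 fold change -0.72 ± 0.47 SE, edgeR adjusted p = 0.640).

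By RefSeq's annotation of the sheep assembly ARS-UI_Ramb_v3.0, read only for names and neighbours since the authors used another build, 5 of the 10 member genes overlap another annotated gene. The strand setting of the counting is not given in the sources used here, so shared reads at these loci could not be told apart. CDC23, which overlaps KIF20A, gave a log2 fold change of -0.01 ± 0.14 (SE), and a long noncoding RNA locus that overlaps KIF11 gave 0.19 ± 0.40 (SE). One that overlaps KIF23 gave 1.31 ± 0.49 (SE), so that part of the KIF23 signal is uncertain. Loci that overlap KIF4A and KIF22 had no row in the count table. KIF15, KIFC1, KIF2C, KIF18A and KIF14 overlap no other gene in that table.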

How the data were processed

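Per the labels' protocols, mRNA libraries keep strand and were sequenced from both ends (150 bp). The submitters' processing notes list the aligner STAR 2.5.2b and SAMtools 1.9, the counter featureCounts 2.0.0, quality checks by FastQC and MultiQC 1.5, DESeq2 1.26.0, and the genome Oar_v3.1. The deposited table holds raw counts per gene symbol. Its columns were matched to samples by name, and 0 columns were left without a sample. The signal in the files that the authors deposited per library is the same counts over their DESeq2 size factors, so it gave no separate alternative.

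Counts were analysed in R 4.3.3 with edgeR 4.0.16, by filterByExpr (minimum count 10, minimum total 15), TMM scaling, the quasi-likelihood test and Benjamini-Hochberg adjustment over all genes at 0.05. The standard error (SE) of a log2 fold change was its size divided by the root of the F statistic. Log2 CPM used a prior count of 2. Tests were checked on simulated data, where edgeR missed all changes of 2-fold but found most changes of 4-fold. There a larger part of DESeq2's calls was false than its threshold allows. This also held for edgeR at 4-fold, to a lesser degree. The members and lists were chosen with earlier results of these data known. Genes named with values were all members, the other kinesins with a part in division, up to 4 genes with the smallest p in each other list, 4 proliferation genes and the 5 nearest profiles. KIF1A, KIF5B, KIF17, KIF21B, KIF26B, KLC1, DCTN2, DYNC1I1, single markers and the genes that overlap members were named after their values were seen. The same holds for those the text says so of. Alternatives were DESeq2 1.42.0, limma-voom (limma 3.58.1), other scaling and filters, a replicate block and left-out libraries. DESeq2 with left-out libraries, a block or no filter was added after seeing the data. Intervals were made from the count of a single library, so they cover counting error only. They may be too narrow even for that, because PCR copies of a molecule were not marked.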

Additional observations from a re-analysis of the deposited data

How the results depend on the processing

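Over 22 alternatives 0 of 220 log2 fold changes of the mitotic kinesins changed sign, and 62 had an adjusted p under 0.05, all with DESeq2. The counts of calls changed with the test. edgeR called 0 genes and 0 members with each scaling, filter or single left-out library, and limma-voom called 0 and 0 with all 6 libraries. DESeq2 called 218 genes and 9 members, and 221 and 9 with no count filter. Leaving out post-MI replicates 1, 2 and 3 in turn, DESeq2 called 69, 81 and 322 genes and 2, 2 and 8 members. Leaving out naive replicates 1, 2 and 3 in turn, it called 253, 391 and 257 genes and 10, 6 and 7 members. With naive replicate 1 and post-MI replicate 3 both left out, edgeR called 3 genes and 0 members, and the members' median was 1.95. The cause of these differences was not tested. All 10 members had an unadjusted p under 0.05 in every alternative. In the main edgeR fit 4.61% of all genes were higher at that p, and this share was not taken for the alternatives. They reuse the same libraries, so they are not separate evidence.

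The replicate numbers were not taken as pairs: over all genes tested, deviations of same-numbered libraries from their group means correlated at 0.15, -0.11 and 0.09. Post-MI replicate 2 correlated best with naive replicate 3. The summed level of the members, however, fell from replicate 1 to replicate 3 in both groups. With the replicate number as a block edgeR called 0 genes and 0 members (median 1.52), and DESeq2 217 genes and 9 members.

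Signs turned for log2 fold changes near 0. KIF2A gave -0.0017 with limma-voom, -0.018 with plain library totals, -0.00063 with the filter of 1 CPM in at least 3 libraries and -0.0032 with the block. With single libraries left out KIF2A ran from -0.13 to 0.084, STARD9 from -0.037 to 0.29 (-0.052 with both libraries left out), KLC4 from -0.27 to 0.041, KLC2 from -0.017 to 0.28, KIFBP from -0.071 to 0.15 and PCNA from -0.045 to 0.45. KIF14, KIF15 and KIF18A had the lowest counts of the members, at 54 to 60 in naive replicate 3, so their relative counting error was largest there.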
